A study of Homo sapiens with 6 samples.

Results

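The miR-181 family is a set of mature miRNAs processed from hairpins named miR-181a to miR-181d. The members were taken by name, from a list made with earlier results of these data known. They are the rows for hsa-miR-181a-5p, hsa-miR-181b-5p, hsa-miR-181c-5p, hsa-miR-181d-5p, hsa-miR-181a-3p, hsa-miR-181a-2-3p and hsa-miR-181c-3p (the species prefix is left out below), which makes 7 of the 2576 mature miRNAs in the tables. There were 4 members from the 5p arm of their hairpin and 3 from the 3p arm. The remaining 3p arms, miR-181b-3p and miR-181d-3p, did not reach the level set for testing and are given only as counts.

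The counts came from small RNA libraries of whole MIO-M1 cells and of the extracellular vesicles (EV) that MIO-M1 cells secrete, with 3 libraries of each. MIO-M1 is an established human Müller glial cell line, labelled wild type and grown in DMEM with fetal calf serum, and all 6 libraries come from this single line. Whole cell RNA was taken at passages 22, 24 and 26 with an RNeasy kit, and EV were collected at passages 23, 25 and 27 from conditioned medium that the labels call serum-free and the methods vesicle-depleted, treated with RNase A while intact, and extracted with a Total Exosome RNA kit. The groups therefore differ in passage, RNase A treatment, extraction kit and, as far as described, medium as well as in source, and these cannot be told apart.

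A miRNA hairpin is cut to a short duplex of its 5p and 3p arms. Usually one arm, the guide, is retained by an Argonaute protein while the other, the passenger, is degraded, and the guide recognises target mRNAs mainly through its seed, bases 2 to 8. In the miR-181 family the 5p arms are the usual guides, and the family is known for roles in lymphocyte development and signalling, in mitochondrial and apoptotic regulation, and in neurons of the retina.

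All 7 members were matched by name to RefSeq mature sequences (GRCh38.p14). The 5p arms are shown first because they hold most of the family's reads and because they are nearly alike in sequence while their levels were not. Capitals mark the seed.
hsa-miR-181a-5p: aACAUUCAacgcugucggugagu
hsa-miR-181b-5p: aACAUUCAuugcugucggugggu
hsa-miR-181c-5p: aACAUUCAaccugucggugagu
hsa-miR-181d-5p: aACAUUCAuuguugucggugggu

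The 4 sequences have the seed ACAUUCA in common. The only other mature miRNA in the RefSeq table with that seed was miR-4262, which had 0 counts in every library. Counting positions from 1 at the 5′ end, miR-181a-5p and miR-181b-5p differ by A9U, C10U and A21G. miR-181b-5p and miR-181d-5p differ by C12U alone, and miR-181c-5p is miR-181a-5p without the G at position 11. Members this similar may exchange reads when reads are short or carry errors, and how the authors' alignment treated a read that fitted more than 1 of them was not given in the sources used here. The low counts of miR-181c-5p and miR-181d-5p are uncertain for that reason.

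The 3p arms are shown because miR-181a-3p and miR-181a-2-3p, the 3p arms of the 2 miR-181a hairpins, are close in sequence but differ in seed, level and pattern across the libraries.
hsa-miR-181a-3p: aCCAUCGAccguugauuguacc
hsa-miR-181a-2-3p: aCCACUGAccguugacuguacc
hsa-miR-181c-3p: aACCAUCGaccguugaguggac

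No seed was shared among the 3p arms. miR-181a-3p and miR-181a-2-3p differ by U5C, C6U and U16C, and the first 2 of these lie in the seed. Each 3p member comes from 1 hairpin, as do miR-181c-5p and miR-181d-5p, whereas miR-181a-5p and miR-181b-5p do not. On GRCh38.p14, miR-181a-3p comes from MIR181A1 on the minus strand of chromosome 1, at chr1:198859044-198859153, beside MIR181B1 at chr1:198858873-198858982. Both lie in an intron of the long non-coding RNA gene MIR181A1HG. miR-181a-2-3p comes from MIR181A2 on the plus strand of chromosome 9, at chr9:124692442-124692551, in an intron of MIR181A2HG and opposite an intron of NR6A1. MIR181C at chr19:13874699-13874808 and MIR181D at chr19:13874875-13875011 lie on the plus strand in an intron of NANOS3 in GENCODE 29. miR-181a-5p is encoded by both MIR181A1 and MIR181A2, and miR-181b-5p by both MIR181B1 and MIR181B2, so their counts are sums over 2 loci.

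The depth of a library is its total count over mature miRNAs. The whole cell libraries held between 396025 and 3990900 counts and the EV libraries between 1225541 and 3134561. Levels are CPM, the count scaled to a common total for every library, and 430 miRNAs that reached 5 CPM in 3 or more libraries were tested. Müller glial miRNAs were abundant in both sources. The 6 listed were miR-9-5p, miR-125b-5p, miR-204-5p, miR-100-5p, miR-30d-5p and miR-125a-5p. They summed to between 173830 and 210920 CPM in whole cells and between 86119 and 150219 CPM in EV, where only miR-204-5p passed the test, with a lower level. Of 8 miRNAs of blood cells and serum, 4 of 5 tested were called higher in EV, beside 14.7% of all 430 tested miRNAs. Their summed level was 265 to 1204 CPM in whole cells and 2144 to 3073 CPM in EV, and miR-451a, miR-144-3p and miR-142-5p were at 0 in every whole cell library. Of 4 miRNAs of photoreceptors and retinal neurons, 2 of 3 tested, miR-182-5p and miR-183-5p, were called higher in EV, beside the same 14.7%. The other tested, miR-96-5p, had 25.3, 7.27 and 6.39 CPM in whole cells and 0, 44.6 and 0 CPM in EV. It did not pass (edgeR adjusted p = 0.985). The sum of the list was 227 to 333 CPM in whole cells and 1151 to 1218 CPM in EV. miR-124-3p was at 0 in all 6 libraries. The part of these miRNAs' sources in the miR-181 results was not tested. As all values are relative to the library total, less of a miRNA and more of the others cannot be told apart.

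As a whole, the family made up a smaller share of EV reads than of cell reads. The 7 members summed to 2.87%, 1.81% and 2.22% of the counts in whole cell replicates 1, 2 and 3, and to 0.881%, 0.469% and 0.266% in EV replicates 1, 2 and 3. The replicate numbers follow passage within each group and pair no cell sample with an EV sample. All EV values lay below all whole cell values, with the widest 95% exact binomial interval at 2.82% to 2.92%, in the shallowest library. The mean was 2.30% ± 0.53 (SD, n = 3) in whole cells and 0.538% ± 0.314 in EV, a 4.27-fold difference. A two-sided exact permutation test gave p = 0.1, the smallest that 3 against 3 libraries allows, and 0.11 after adjustment over 11 shares tested. The 5p members accounted for most of this difference, with 2.08% ± 0.54 in cells and 0.431% ± 0.252 in EV. The 3p members held 0.215% ± 0.026 and 0.108% ± 0.062. The intervals here and below cover counting error only, and whether reads were collapsed to starting molecules was not given in the sources used here.

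**Figure D1:**
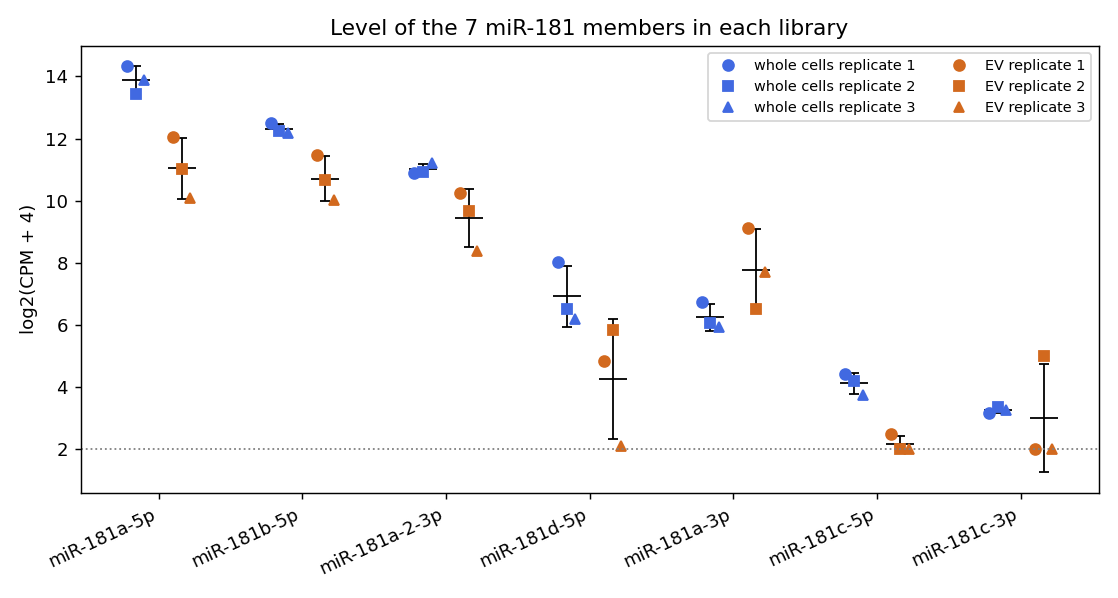
Level of each member in each library as log2(CPM + 4), with whole cells in blue and EV in orange; the horizontal ticks and bars are the mean and SD of 3 libraries and the dotted line is the value of a count of 0. The EV libraries of miR-181a-5p, miR-181b-5p, miR-181a-2-3p, miR-181d-5p and miR-181c-5p all sit below their whole cell libraries, while those of miR-181a-3p and miR-181c-3p overlap them.

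The 430 miRNAs were tested with edgeR (quasi-likelihood) and their p-values adjusted by the Benjamini-Hochberg method, and 2 of the 7 members were called at an adjusted p below 0.05, both lower in EV. Over all tested miRNAs the same rule called 28.6%, with 14% lower and 14.7% higher in EV, so the members' count is close to the background. DESeq2 called 3 of the 7, all lower, beside 34.7% of all miRNAs in either direction and 19.8% lower. Under limits of 0.01 for the edgeR adjusted p and 2.5 for the size of the log2 fold change, 0 of the 7 were called, beside 5.81% of all miRNAs. Under the same limits DESeq2 called 1 of the 7, miR-181a-5p, beside 16.7% of all miRNAs. An unadjusted edgeR p below 0.05 was found for 5 of the 7, miR-181c-5p among them, beside 35.8% of all miRNAs. The median log2 fold change of the members was -1.45, beside -0.23 over all 430, for which the quartiles were -1.72 and 1.29. In 5 of the 7 members every EV library was below every whole cell library, a pattern that 27.9% of all tested miRNAs showed, and in no member was every EV library above, against 20.5%. Every member reached 5 CPM in the 3 whole cell libraries, and miR-181c-5p passed the filter through whole cells alone, so these counts and the median are a description and not support for a direction.

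miR-181a-5p, the most abundant member, was the one with the clearest difference. It had 20567, 11158 and 14999 CPM in whole cells and 4212, 2087 and 1078 CPM in EV, from between 3380 and 44531 counts a library. Its rank among all miRNAs was 12th, 20th and 17th in the cell libraries and 35th, 58th and 65th in the EV libraries. The lowest cell library was thus above the highest EV library by a wide margin. Mean levels were 15575 ± 4731 CPM (SD, n = 3) in cells and 2459 ± 1600 CPM in EV, a 6.33-fold difference. The log2 fold change, EV minus whole cells, was -2.60 (SE 0.56, edgeR adjusted p = 0.0121). miR-181a-5p was called in all 14 alternative fits, with log2 fold changes from -3.46 to -2.23. These fits all rest on the same 6 libraries. The paper reports that its RT-qPCR did not show miR-181a-5p as downregulated in EV. The log2 fold change it prints beside that statement is nevertheless negative, the same direction as here. The RT-qPCR values were not analysed.

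miR-181b-5p, next in level, was also called lower in EV. Its levels were 5835, 4815 and 4674 CPM in whole cells and 2816, 1610 and 1036 CPM in EV. The cell libraries were close together and all of them above the EV libraries. The means were 5108 ± 634 CPM and 1821 ± 908 CPM, a 2.81-fold difference, and the log2 fold change was -1.45 (SE 0.43, edgeR adjusted p = 0.0432). This call sat near the threshold and was held in 7 of 14 alternative fits. It was lost without any one of whole cell replicates 1, 2 and 3 and EV replicates 2 and 3, with adjusted p from 0.0551 to 0.108, with a filter of 10 CPM (edgeR adjusted p = 0.0569), and with an offset for GC content (log2 fold change -1.09, adjusted p = 0.141 from edgeR).

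The minor 5p members were rare in both sources. miR-181d-5p had 258, 88.7 and 69.5 CPM in whole cells and 24.5, 53.5 and 0.319 CPM in EV. The EV libraries were all lower but spread from 1 count in replicate 3 to 109 counts in replicate 2, and the fitted log2 value of -2.41 (SE 1.42) did not pass in edgeR, with an adjusted p of 0.280. For every 100 counts of miR-181b-5p, which differs from it by a single base, there were 4.41, 1.84 and 1.49 counts of miR-181d-5p in cells and 0.869, 3.32 and 0.0308 in EV. This ratio was not constant within either group.

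miR-181c-5p had 7, 57 and 12 counts in whole cells and 2, 0 and 0 counts in EV. In CPM these were 17.7, 14.3 and 9.58 against 1.63, 0 and 0, where the zeros still allow 1.47 CPM in EV replicate 2 and 0.957 CPM in EV replicate 3, or 3 counts each. Summed over libraries, 76 counts in cells stood against 2 in EV, a ratio per total of 43.1 with a 95% counting interval from 11.5 to 363. That interval pools reads and leaves out the spread between libraries, and the ratio of the mean CPM was 25.5. As miR-181c-5p passed the filter through whole cells alone, neither ratio is support for a difference. The edgeR test did not pass, with adjusted p = 0.0757, and its fold change depends on how counts of 0 are treated. Both EV counts were in replicate 1.

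**Figure D2:**
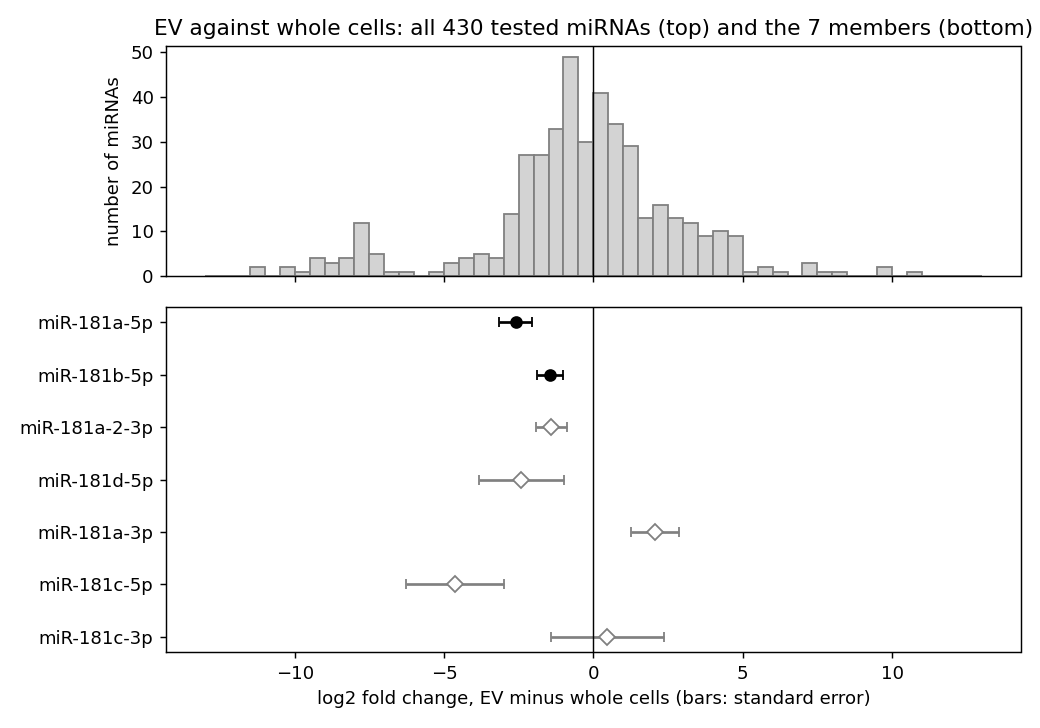
Distribution of the log2 fold change, EV minus whole cells, over all 430 tested miRNAs (top, number of miRNAs per bin of log2 fold change) and the 7 members with their standard errors (bottom, members in order of level in whole cells). Filled black points are the 2 members with an edgeR adjusted p below 0.05, miR-181a-5p at -2.60 and miR-181b-5p at -1.45, and open grey points the other 5.

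The makeup of the 5p reads differed between the sources. miR-181a-5p made up 77.1%, 69.4% and 75.9% of the summed 5p counts in whole cells and 59.7%, 55.7% and 51.0% in EV. miR-181b-5p made up 21.9%, 29.95% and 23.7% in cells and 39.9%, 42.9% and 49.0% in EV. The groups did not overlap for either, and the widest 95% exact interval among these 12 shares spanned 49.8% to 52.2%. Put as a ratio, there were 3.52, 2.32 and 3.21 counts of miR-181a-5p per count of miR-181b-5p in cells and 1.496, 1.30 and 1.04 in EV. The log2 ratio of their levels averaged 1.57 ± 0.32 (SD, n = 3) in cells and 0.34 ± 0.26 in EV. An exact permutation test of this ratio gave p = 0.1, the smallest possible, and 0.21 adjusted over the 21 pairs of members, so a difference in response between miR-181a-5p and miR-181b-5p was not established by test. miR-181d-5p made up 0.352% to 0.965% of the 5p counts in cells and 0.0151% to 1.43% in EV, and these ranges overlapped.

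Among the 3p members, which are the usual passengers, miR-181a-2-3p was by far the most abundant. Its levels were 1886, 1945 and 2388 CPM in whole cells and 1204, 820 and 334 CPM in EV. All EV libraries were below the cell libraries, and the means of 2073 ± 274 CPM and 786 ± 436 CPM differed 2.64-fold. It did not pass in edgeR, at a log2 fold change of -1.41 (SE 0.51, adjusted p = 0.0856), although DESeq2 gave -1.61 with an adjusted p of 0.0126. Across 14 alternatives it passed in 4, with log2 fold changes from -2.08 to -0.46 and adjusted p from 0.0126 to 0.528 in edgeR and DESeq2. The smallest change, -0.46, and the adjusted p of 0.528 both came from edgeR with the offset for GC content. Its ratio to miR-181b-5p showed no detectable difference, with a mean log2 ratio of miR-181b-5p to miR-181a-2-3p of 1.30 ± 0.33 in cells and 1.27 ± 0.33 in EV (exact permutation p = 0.8).

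miR-181a-3p, the corresponding arm of the other miR-181a hairpin, had its higher values in EV. There were 104, 62.9 and 57.5 CPM in whole cells and 553, 87.8 and 207 CPM in EV. EV replicate 2 lay inside the range of the cell libraries, and the other EV libraries were above all of them. The means were 74.6 ± 25.2 CPM in cells and 283 ± 242 CPM in EV, and the log2 fold change of 2.06 (SE 0.82) did not pass (edgeR adjusted p = 0.113). Without EV replicate 2 it was 2.37, with an edgeR adjusted p of 0.0429, and without EV replicate 1 it was 0.91, with an adjusted p of 0.389.

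miR-181c-3p was close to the detection limit. It had 2, 25 and 7 counts in whole cells and 0, 58 and 0 in EV, or 5.05, 6.26 and 5.59 CPM against 0, 28.5 and 0 CPM. The whole of its EV signal came from replicate 2, and its log2 fold change with all libraries was 0.47 (SE 1.88, edgeR adjusted p = 0.890). Without that library the EV counts are all 0 and the fitted sign is negative. No direction can be given for it. Outside the chosen members, miR-181b-3p had 0, 1 and 2 counts in cells and 22, 50 and 0 in EV, and miR-181d-3p had 2 counts in whole cell replicate 2 and 0 in all other libraries.

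The 3p arms took a larger part of the family's reads in EV. They held 6.96%, 11.1% and 11.0% of the counts of the 7 members in whole cells and 19.9%, 19.97% and 20.4% in EV. All EV libraries were above all whole cell libraries, and they were nearly equal in this proportion although the family's share of all counts was not. The means were 9.71% ± 2.39 and 20.1% ± 0.2 (SD, n = 3), with exact permutation p = 0.1 and 0.11 adjusted over the 11 shares. miR-181a-3p accounted for 5.20%, 3.13% and 2.35% of the counts of both miR-181a 3p arms in cells and for 31.5%, 9.68% and 38.3% in EV. There were 18.2, 30.9 and 41.5 counts of miR-181a-2-3p per count of miR-181a-3p in cells and 2.18, 9.34 and 1.61 in EV. The balance between the 3p arms of the chromosome 9 and chromosome 1 hairpins was thus less unequal in every EV library. The counts of miR-181a-5p cannot be assigned to either hairpin.

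**Figure D3:**
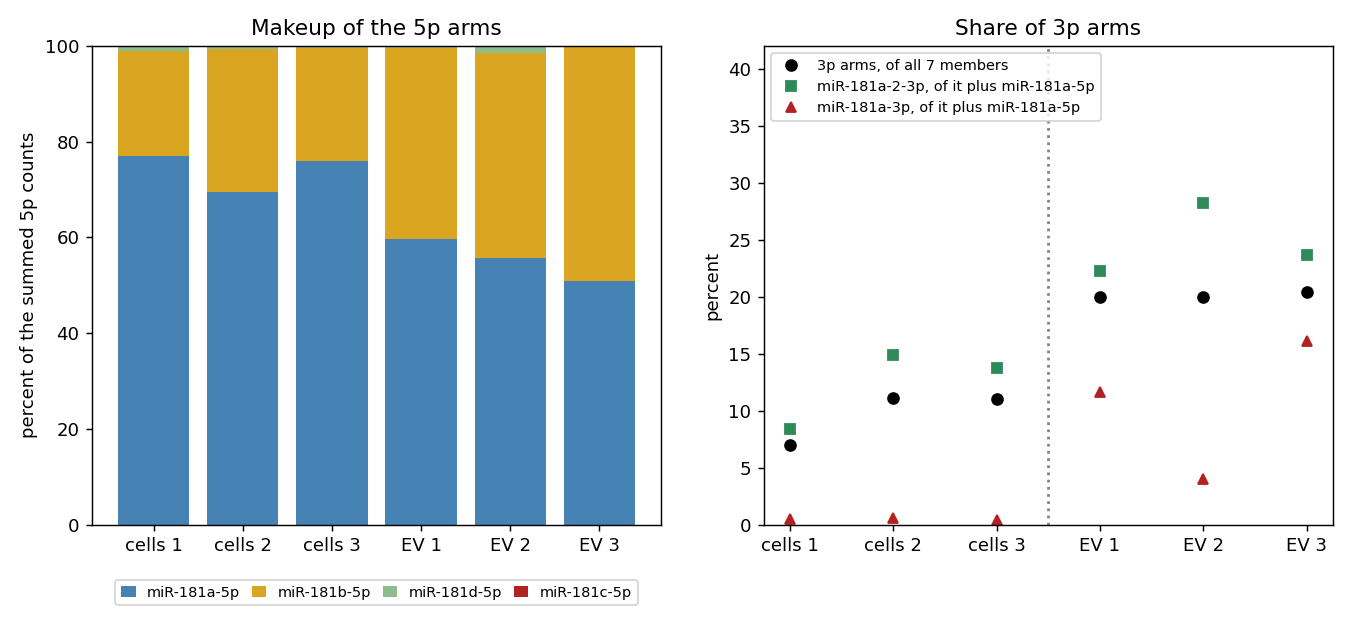
Left, percent of the summed 5p counts held by each 5p member in each library, as stacked bars from 0 to 100. Right, in percent for each library, the 3p arms among all 7 members, miR-181a-2-3p of the sum of it and miR-181a-5p, and miR-181a-3p of the sum of it and miR-181a-5p. miR-181a-5p takes 69.4% to 77.1% of the 5p counts in cells and 51.0% to 59.7% in EV, and the 3p arms take 6.96% to 11.1% and 19.9% to 20.4% of all members.

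The ratio of a 5p arm to its 3p arm is taken within a library. It was fitted with limma on log2(CPM + 4) over 123 arm pairs with both arms past the filter, where the added 4 CPM pulls the ratios of rare arms towards 0, and 26% of them were called at an adjusted p below 0.05, with 17 pairs lower and 15 higher in EV. Of the 3 family pairs 1 was called. There were 199, 177 and 261 counts of miR-181a-5p per count of miR-181a-3p in whole cells and 7.61, 23.8 and 5.20 in EV. Each EV library was thus far below each cell library, including EV replicate 2, whose miR-181a-3p level alone did not stand out. The log2 ratio fell by 4.37 (SE 0.82, limma adjusted p = 0.00423), from a mean of 7.63 to 3.26, whereas the median change over all 123 pairs was -0.19. The EV minus cell difference of mean log2(CPM + 4) was -2.83 for miR-181a-5p and 1.54 for miR-181a-3p. The fall thus includes the difference of miR-181a-5p given above and is not a separate result about the 3p arm. Only 9 pairs had a larger fall, and leaving out each library in turn gave changes from -4.99 to -3.92, all called.

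For the 3p arm of the other miR-181a hairpin the test did not pass. Counts of miR-181a-5p per count of miR-181a-2-3p were 10.9, 5.74 and 6.28 in whole cells and 3.50, 2.55 and 3.23 in EV. These groups did not overlap, a pattern in the same direction that 26.8% of all arm pairs showed, and the EV minus cell difference of the log2 ratio was -1.26 (SE 0.75, limma adjusted p = 0.262). That for miR-181c-5p to miR-181c-3p was -1.71 (SE 1.03, limma adjusted p = 0.262), from counts of at most 58 a library. miR-181a-5p is the sum of both miR-181a hairpins, so neither ratio is that of a single hairpin.

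**Figure D4:**
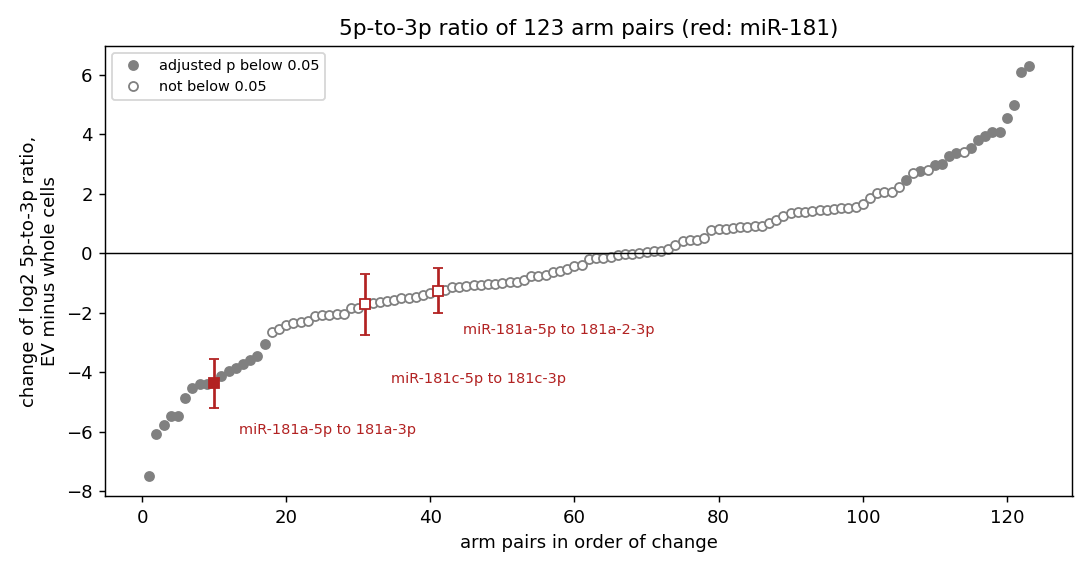
Change of the log2 ratio of the 5p to the 3p arm, EV minus whole cells, for 123 arm pairs in order of size, with filled points called by limma at an adjusted p below 0.05. The family pairs are red squares with standard errors, and miR-181a-5p to miR-181a-3p, at -4.37, is the one called.

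In order of level, whole cells had miR-181a-5p above miR-181b-5p, then miR-181a-2-3p, miR-181d-5p, miR-181a-3p, miR-181c-5p and miR-181c-3p. Only miR-181d-5p and miR-181a-3p had ranges that overlapped as neighbours, although miR-181d-5p was the higher in all 3 libraries. In EV the order was miR-181a-5p, miR-181b-5p, miR-181a-2-3p, miR-181a-3p and miR-181d-5p, with the rare miR-181c arms last. There the ranges of neighbours overlapped except between miR-181a-3p, at 87.8 CPM or more, and miR-181d-5p, at 53.5 CPM or less.

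The miRNAs outside the family with a pattern across the 6 libraries most like that of miR-181a-5p were miR-598-3p (Pearson r = 0.991 on log2(CPM + 4)), miR-409-5p (0.978), miR-222-3p (0.970), miR-193b-3p (0.966) and miR-487b-5p (0.963). These values describe only 6 libraries in 2 groups, and 45 of the 429 others had r above 0.9. Within the family, r with miR-181a-5p was 0.990 for miR-181b-5p, 0.950 for miR-181c-5p, 0.947 for miR-181a-2-3p and 0.862 for miR-181d-5p. It was 0.10 for miR-181c-3p and -0.47 for miR-181a-3p, the arm with its higher values in EV.

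The mature sequences were searched on the RNA strand for 3 short motifs, GGAG, CCCU and GGCU. None occurred in any of the 7 members, while 10.5%, 10.8% and 14.4% of the 390 tested miRNAs with a RefSeq sequence held them. GC content ran from 43.5% in miR-181d-5p to 54.5% in miR-181a-2-3p and miR-181c-3p, around the median of 50% for the 390. Across those miRNAs, which share libraries and are not independent, GC content and log2 fold change had r = -0.35. miR-181a-3p and miR-181a-5p had GC contents of 50% and 47.8%, and the part of GC content in their ratio was not tested.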

How the data were processed

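Per the file headers and the study's methods, the authors trimmed adapters with Cutadapt, aligned reads to miRBase and counted reads per mature miRNA with featureCounts 1.5.0-p1 at strand setting 1. The deposited values are raw counts without normalisation. The header names miRBase release 20 and Bowtie 1, whereas the processing notes name Bowtie2, and no genome build is named, so positions come from RefSeq (GRCh38.p14).

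The 6 libraries were grouped by the source in their labels. Whether they came from separate cultures is stated only as different passages, so p-values measure the spread between these samples. CPM used each library's total count. miRNAs that reached 5 CPM in 3 or more libraries were tested with edgeR 4.0.16 (TMM, quasi-likelihood) in R 4.3.3, with DESeq2 1.42.0 as an alternative. Arm ratios, with a pseudocount of 4 CPM, were fitted with limma 3.58.1. Exact two-sided permutation tests were used for single values, and single shares carry exact (Clopper-Pearson) 95% intervals (scipy 1.17.1). A count of 0 was taken to allow 3 counts. The fits were also run on simulated data. Its spread between libraries was set below that estimated for miR-181a-3p, miR-181c-5p, miR-181d-5p and miR-181c-3p, so it is no support for their results. Figures used matplotlib 3.10.9 in Python 3.11.15.

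The members, marker lists and tests were chosen with earlier results of these data known. The named miRNAs are the 7 members, the 5 others most correlated with miR-181a-5p, seed relatives, and marker miRNAs that moved with the groups. miR-181b-3p, miR-181d-3p and the motifs searched were added beyond that rule. Alternatives covered tool, normalisation, filter, depth, limits, GC content, pseudocount, denominator and each library left out. RT-qPCR values were not analysed here.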

Additional observations from a re-analysis of the deposited data

How the results depend on the processing

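The number of members called was 2 of 7, beside 28.6% of all miRNAs. It became 1 with a filter of 10 CPM (26.9% of all miRNAs), 1 with the GC offset (24.1%) and 0 at the stricter limits of 0.01 and 2.5. With each library left out it ran from 1 to 4, with 1 without whole cell replicate 1 (28.4%), 2 (17.2%) or 3 (18.8%) and without EV replicate 3 (30.7%), and 4 without EV replicate 1 (33.3%). The 4 include miR-181c-5p, whose EV counts are then all 0, so that call follows from the choice of library. Without EV replicate 2 it was 3 (30.7%), where miR-181b-5p was lost and miR-181a-3p and miR-181c-3p were gained. The EV counts of miR-181c-3p are then all 0, so its call follows from the choice of library too. The log2 fold change of miR-181c-3p ran from -6.51 to 1.02 with each library left out, and was reversed without EV replicate 2, which held all of its EV counts. The summed share of the 7 members differed by -2.01 to -1.48 percentage points, and that of the 5p members by -1.89 to -1.36, with each library left out. The remaining members kept their direction in every fit, and the cause of the other lost or gained calls was not tested. The median log2 fold change of all miRNAs moved by -0.18 with RLE factors or DESeq2, 0.32 with the GC offset, -0.27 without EV replicate 1, -0.23 without EV replicate 2, -0.22 without whole cell replicate 1, and -2.17 without a filter, where 1188 miRNAs were tested. The members' changes are to be read relative to these shifts. The number of all miRNAs called was 123, and it was 240 without a filter, 74 without whole cell replicate 2 and 81 without whole cell replicate 3. With the 10 CPM filter miR-181c-5p, miR-181c-3p and their arm ratio gave no value. No paired analysis was possible because the groups share no passage or other number in the labels, and the replicate numbers used here only name the libraries. The depth limits miR-181c-5p, miR-181c-3p and miR-181d-5p, each with 2 counts or fewer in at least 1 EV library.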

Other observations

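The primers that the study lists for RT-qPCR of miR-181a-5p were compared with the 7 members, since near-identical members are told apart in such an assay by few bases. The forward primer is CGCAACATTCAACGCTGTC, and its bases 4 to 19 are identical to bases 1 to 16 of miR-181a-5p with T for U. The longest run shared with miR-181b-5p and miR-181d-5p was 8 bases, which is the start of the mature sequence through the seed, and that with miR-181c-5p was 10 bases. A run stops at the first difference, and the match goes on after it. Within bases 1 to 16, miR-181b-5p differs from miR-181a-5p only by A9U and C10U, and miR-181d-5p also by C12U. miR-181c-5p only lacks the G at position 11. The reverse primer is GGTCCAGTTTTTTTTTTTTTTTACACA. Its last bases, ACACA, are the reverse complement of TGTGT, which was found in none of the 7 members, and miR-181a-5p ends in TGAGT. The same reverse primer is listed for miR-127-3p. No assay value was used here, and the effect of these bases on amplification was not tested.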
